A study of Mus musculus with 6 samples.

Results

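The genes described here are the Wnt pathway genes of the mouse lung, a list of 51 covering 19 ligands and the genes that release or potentiate them, 14 receptors, 13 inhibitors and 5 nuclear effectors. A gene was given a value where at least 1 probe set of the array was annotated to its symbol alone, and the probe set with the brightest mean signal stood for the gene. By that rule 50 of the 51 had a value, out of 19938 genes measured. The exception was *Tcf7*, a TCF/LEF transcription factor, which had no probe set annotated to it alone and has no value here.

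Wnt proteins are lipid-modified secreted ligands that bind Frizzled receptors together with the coreceptors Lrp5 and Lrp6. In the canonical branch, binding stops a cytoplasmic complex built on Axin and Apc from marking β-catenin for destruction, so that β-catenin enters the nucleus and acts with TCF/LEF factors. Noncanonical branches act through cell polarity and calcium. In the developing lung, Wnt signals pass between mesenchyme and epithelium, are needed to specify the lung, and later bear on branching, vessel growth and alveolar differentiation.

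Whole lungs were taken at E18.5, shortly before birth, from 3 wild type (WT) embryos and 3 mutant littermates, called *Tnrc6a* null, on a C57Bl/6 strain background. *Tnrc6a* encodes GW182, a scaffold protein through which Argonaute complexes silence the targets of microRNAs. The null embryos were homozygous for a gene trap that inserts β-galactosidase in the *Tnrc6a* locus, an allele carried by every cell of the embryo. Total RNA of each embryo was hybridised to 1 Affymetrix Mouse Gene 1.0 ST array, and each value below is a signal on the deposited log scale, which the labels call log2. The base was not settled from the values, so differences between genotypes (null minus WT) are given on that scale and not as folds.

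Array medians lay between 4.98 and 5.03, and 6 arrays limit the precision of every value. The targeted gene, *Tnrc6a*, read 7.38, 7.13 and 7.18 in WT 1 to 3 and 5.45, 5.04 and 5.40 in null 1 to 3, the order used for every gene below. Its difference was -1.93 (SE 0.128, limma adjusted p = 0.00312), and it was the only gene of the 19938 past an adjusted p of 0.05. Of the 6 lungs, WT 1 and null 3 each correlated more closely with each other (r = 0.992 across genes) than with any other lung of either genotype, while pairs of lungs as a whole gave r from 0.979 to 0.993. *Sftpc*, which encodes a surfactant protein of the alveolar epithelium, had a mean signal of 11.7, as a lung sample should.

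No Wnt pathway gene passed the adjusted test. Their adjusted p from limma ran from 0.89 to 1, and *Tnrc6a* alone made up the 0.00502% of all genes past that threshold. The means were lower in the null lungs for 35 of the 50 genes, higher for 13 and equal for 2, with a median difference of -0.05. Over all genes, 49.8% had a lower mean in the null lungs and the median difference was 0.

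At an unadjusted p under 0.05 from limma, 6 of the 50 genes (12%) differed, and all 6 had lower means in the null lungs. They were the receptors *Fzd4* and *Fzd8*, the inhibitors *Dkk2*, *Dkk3* and *Nkd1*, and the transcription factor *Lef1*. The background share of all genes was 5.42% in either direction, 2.96% lower and 2.46% higher. The count of 6 rested on single lungs, and the share of all genes at that threshold moved too. Without WT 2, 1 Wnt pathway gene (2%) was left at that threshold beside 3.08% of all genes, and without WT 1 there were 9 (18%) beside 8.68%. Without null 2 the count was 6, beside 5.49% of all genes. Leaving out WT 3, null 1 or null 3 gave 3 each (6%), beside 3.35%, 3.67% and 8.64% of all genes, and of the 3 without WT 3 the ligand *Wnt2b* was higher in the null lungs. With WT 1 and null 3 both left out the count was 11 (22%) beside 14.5%, and with them fitted as a block it was 7 (14%) beside 14.9%. The number of Wnt pathway genes with a lower mean ran from 25 without WT 3 (45.6% of all genes) to 40 without WT 1 (56.2% of all genes).

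**Figure D1:**
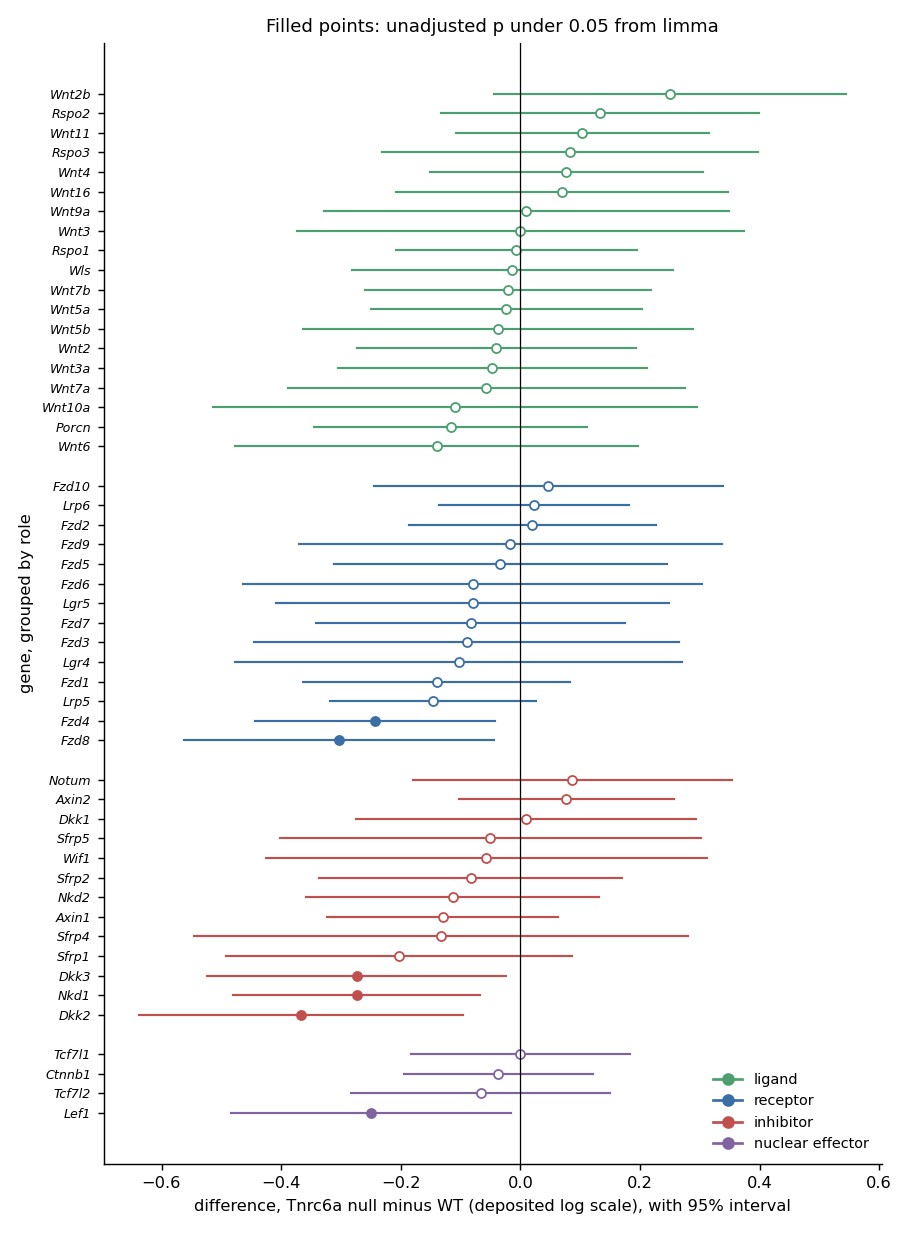
Difference of the 50 Wnt pathway genes between *Tnrc6a* null and WT lungs on the deposited log scale, ordered within each role, with points for the difference and bars for its 95% interval from limma over 3 lungs of each genotype, filled where the unadjusted p was under 0.05. The intervals of 44 genes include 0, and the 6 that do not all lie below it.

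The signal of a gene bears on this comparison, since the difference depended on brightness across the whole array. With all genes split into 10 bins of equal size by mean signal, the median difference ran from 0.15 in the dimmest bin to -0.06 in the brightest, and the share of genes with a lower mean in the null lungs from 20.6% to 71.4%. Of the Wnt pathway genes, 30 of 50 lay above the median signal. Weighted to the bins in which the 50 genes fall, 56.6% of all genes had a lower mean and 3.6% were lower at an unadjusted p under 0.05, beside 70% and 12% of the Wnt pathway genes. Measured against the median of its own bin, a Wnt pathway gene was lower in 31 of 50 cases, and the median of these distances was -0.03.

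**Figure D2:**
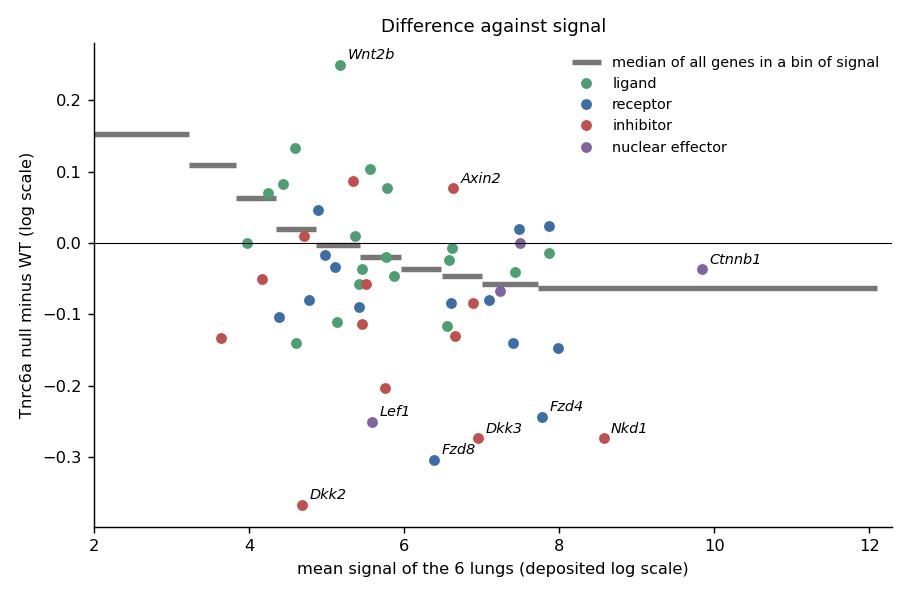
Difference between *Tnrc6a* null and WT lungs (vertical axis, deposited log scale) against mean signal over the 6 lungs (horizontal axis, deposited log scale) for the 50 Wnt pathway genes, coloured by role, with grey bars at the median of all genes in each of 10 bins of signal. The bars pass from 0.15 among the dimmest genes to -0.06 among the brightest, and the 6 lowest points are *Dkk2*, *Fzd8*, *Dkk3*, *Nkd1*, *Lef1* and *Fzd4*.

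Among the ligands and their helpers, no gene reached an unadjusted p under 0.05 and the genotypes overlapped for all 19. Means were lower in the null lungs for 11, higher for 7 and equal for 1, with a median of -0.01. That median had no settled sign: with single lungs left out it ran from -0.03 without WT 1 to 0.06 without null 1 and was also above 0 without WT 2 or WT 3, while it was -0.05 after median centring, 0.0036 after cyclic loess and -0.065 without both WT 1 and null 3. *Wnt2*, a mesenchymal ligand that takes part in lung specification, stood at 7.25, 7.61 and 7.50 in WT and 7.47, 7.42 and 7.35 in null lungs. The null lungs lay within the WT range, and the difference was -0.04 (95% interval -0.27 to 0.19).

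*Wnt2b*, which acts with *Wnt2* in lung specification, stood at 4.89, 4.95 and 5.31 in WT and at 5.32, 5.34 and 5.24 in null lungs. The third WT lung sat with the null lungs, so the genotypes overlapped. The difference of 0.25 was the largest among the ligands (SE 0.130, 95% interval -0.04 to 0.54, limma adjusted p = 0.89), and it was 0.38, at an unadjusted p under 0.05, without WT 3.

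*Wnt5a*, the noncanonical ligand of distal lung mesenchyme, stood at 6.55, 6.59 and 6.62 in WT lungs and 6.70, 6.38 and 6.61 in null lungs. The null lungs spread to both sides of the WT lungs, with a difference of -0.02 (95% interval -0.25 to 0.20). *Wnt7b*, a ligand of the airway epithelium that acts on mesenchyme and vessels, stood at 5.65, 5.78 and 5.90 in WT and 5.87, 5.74 and 5.66 in null lungs. Both genotypes covered nearly the same range, and the difference was -0.02 (95% interval -0.26 to 0.22).

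*Wnt11*, another mainly noncanonical ligand, stood at 5.51, 5.56 and 5.46 in WT lungs and 5.68, 5.63 and 5.53 in null lungs. Null 3 lay among the WT lungs, and the difference of 0.10 had a 95% interval of -0.11 to 0.31. The remaining Wnt ligands ranged from -0.14 for *Wnt6* to 0.08 for *Wnt4*. Between them lay *Wnt10a* at -0.11, *Wnt7a* at -0.06, *Wnt3a* at -0.05, *Wnt5b* at -0.04, *Wnt3* at 0.00, *Wnt9a* at 0.01 and *Wnt16* at 0.07. *Wnt4* had a second probe set, whose difference was 0.01. *Wnt3* and *Wnt16* had signals under 4.37, the level below which 95% of the 1194 measured olfactory and vomeronasal receptor genes lay (their probe sets served as a reference for dim signal), so their differences are those of dim probe sets.

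R-spondins potentiate Wnt signals by keeping Frizzled receptors at the cell surface. *Rspo2*, which is needed for lung branching, stood at 4.56, 4.65 and 4.37 in WT lungs and 4.67, 4.67 and 4.64 in null lungs, with 1 null lung inside the WT range. Its difference was 0.13 (95% interval -0.13 to 0.40), beside -0.01 for *Rspo1* and 0.08 for *Rspo3*. *Porcn*, which encodes the acyltransferase that lipidates Wnt proteins, stood at 6.43, 6.64 and 6.76 in WT and 6.45, 6.51 and 6.52 in null lungs. The null lungs lay inside the WT range, with a difference of -0.12 (95% interval -0.34 to 0.11). *Wls*, which carries the lipidated ligands to the cell surface, differed by -0.01.

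Receptors had lower means in the null lungs for 11 of 14 genes and higher means for 3, with a median of -0.08 that ran, with single lungs left out, from -0.16 without null 2 to -0.01 without WT 2. Of the 14, 2 passed an unadjusted p under 0.05 from limma, beside 5.42% of all genes. Genotypes did not overlap for 3, beside 10.2% of all genes. *Fzd4*, the Frizzled of blood vessels that also binds Norrin, stood at 7.81, 7.96 and 7.95 in WT lungs and 7.77, 7.69 and 7.53 in null lungs. All null lungs were lower than all WT lungs, though null 1 was close to WT 1. The difference was -0.24 (SE 0.0884, 95% interval -0.44 to -0.04, limma adjusted p = 0.89), and it ran from -0.30 to -0.18 as each lung was left out. *Fzd4* was at an unadjusted p under 0.05 in 14 of 19 settings, and was not after quantile normalization, with the replicate block, or without WT 2, WT 3 or null 3. The settings include the reported fit and others that reuse the same lungs, many with the same difference. Counts of settings, here and below, are therefore no independent support.

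*Fzd8*, a Frizzled that signals with Lrp6, stood at 6.33, 6.61 and 6.68 in WT lungs and 6.30, 6.30 and 6.11 in null lungs. Here too no null lung reached a WT lung, but WT 1 lay just above null 1 and null 2. Its difference of -0.30 was the largest among the receptors (SE 0.114, 95% interval -0.56 to -0.04, limma adjusted p = 0.89), with a range of -0.41 to -0.23 over the lungs left out in turn. *Fzd8* too was at an unadjusted p under 0.05 in 14 of 19 settings, and was not with the replicate block, by the methods' t-test, or without WT 2, WT 3 or null 3.

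*Lrp5*, one of the coreceptors, stood at 8.01, 8.09 and 8.09 in WT lungs and 7.82, 7.96 and 7.97 in null lungs. The genotypes did not overlap, but the difference of -0.15 had a 95% interval that included 0 (-0.32 to 0.03). *Lrp6*, the other coreceptor, stood at 7.86, 7.88 and 7.82 in WT and 7.86, 7.84 and 7.93 in null lungs. Its genotypes overlapped, and its difference was 0.02 (95% interval -0.14 to 0.18). Whether the coreceptors differ from each other in their response was not tested.

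*Fzd1*, one of the brighter Frizzled probe sets, stood at 7.27, 7.53 and 7.61 in WT lungs and at 7.32, 7.36 and 7.31 in null lungs. WT 1 lay below all null lungs and the other WT lungs above them, giving a difference of -0.14 (95% interval -0.36 to 0.08). It was -0.24, at an unadjusted p under 0.05 from limma, without WT 1, and -0.07 without WT 3. *Fzd2*, which transduces Wnt5a among other ligands, stood at 7.32, 7.52 and 7.58 in WT and 7.47, 7.44 and 7.57 in null lungs. Its null lungs fell within the WT range, with a difference of 0.02 (95% interval -0.19 to 0.23). The other Frizzled genes lay between -0.09 and 0.05, with *Fzd3* at -0.09, *Fzd6* and *Fzd7* at -0.08, *Fzd5* at -0.03, *Fzd9* at -0.02 and *Fzd10* at 0.05.

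Lgr proteins are receptors for R-spondins. *Lgr5*, also known as a stem cell marker, stood at 4.71, 5.03 and 4.72 in WT lungs and 4.58, 4.96 and 4.68 in null lungs. The lungs of both genotypes were interleaved, with a difference of -0.08 (95% interval -0.41 to 0.25). *Lgr4* differed by -0.10.

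Inhibitors had lower means in the null lungs for 10 of 13 genes and higher means for 3, with a median of -0.11 that ran, with single lungs left out, from -0.15 without WT 1 to -0.04 without WT 3. Of the 13, 3 passed an unadjusted p under 0.05 from limma, beside 5.42% of all genes. Genotypes did not overlap for 4, beside 10.2% of all genes. *Dkk2*, a secreted protein that binds Lrp coreceptors, stood at 4.77, 4.91 and 4.94 in WT lungs and 4.66, 4.46 and 4.40 in null lungs. All null lungs were below all WT lungs. The difference of -0.37 was the largest of the 50 Wnt pathway genes in either direction (SE 0.119, 95% interval -0.64 to -0.10, limma adjusted p = 0.89). It ran from -0.44 to -0.31 as each lung was left out, and *Dkk2* was the only one of the 50 genes at an unadjusted p under 0.05 in all 18 settings it was tested under. It was too dim for the setting restricted to genes above the median signal. Its null mean of 4.51 lay close to 4.37, the level used above to mark dim probe sets, so its difference is hard to read.

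*Nkd1*, an intracellular inhibitor that binds Dishevelled and is itself a common target of canonical signalling, stood at 8.73, 8.76 and 8.65 in WT lungs and 8.27, 8.57 and 8.48 in null lungs. The genotypes were separate, with null 1 the lowest lung. The difference was -0.27 (SE 0.0908, 95% interval -0.48 to -0.07, limma adjusted p = 0.89), at an unadjusted p under 0.05 in 17 of 19 settings. It was no longer so without WT 2 or without null 1. *Nkd2*, its paralog, differed by -0.11.

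*Dkk3*, a divergent member of the Dickkopf family, stood at 6.96, 7.07 and 7.26 in WT lungs and 6.78, 6.99 and 6.70 in null lungs. Null 2 lay above WT 1, so the genotypes overlapped. The difference was -0.27 (SE 0.110, 95% interval -0.52 to -0.02, limma adjusted p = 0.89), and only 10 of 19 settings left it at an unadjusted p under 0.05. *Dkk1*, the best known Lrp antagonist of the family, stood at 4.61, 4.87 and 4.65 in WT and at 4.59, 4.72 and 4.85 in null lungs. Those ranges coincided, and its difference of 0.01 (95% interval -0.27 to 0.29) took a negative sign under all 3 other scalings.

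Of the proteins that bind or modify the ligands themselves, *Wif1*, which sequesters Wnts, stood at 5.21, 5.83 and 5.58 in WT lungs and 5.48, 5.64 and 5.33 in null lungs. The null lungs lay within the WT range, with a difference of -0.06 (95% interval -0.42 to 0.31). *Notum*, which removes the lipid from Wnts and is a canonical target, stood at 5.26, 5.36 and 5.26 in WT and at 5.24, 5.31 and 5.59 in null lungs. Null 3 was the highest of the 6 lungs and null 1 the lowest, and the difference was 0.09 (95% interval -0.18 to 0.35). The secreted Frizzled-related proteins, which bind Wnts outside the cell, were *Sfrp1* at -0.20, *Sfrp2* at -0.08, and the dim *Sfrp4* and *Sfrp5* at -0.13 and -0.05.

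The Axins scaffold the complex that marks β-catenin for destruction, and *Axin2* is the target gene most used as a readout of canonical signalling. *Axin1* stood at 6.84, 6.67 and 6.66 in WT lungs and 6.64, 6.57 and 6.57 in null lungs. *Axin2* stood at 6.60, 6.57 and 6.62 in WT and at 6.63, 6.75 and 6.64 in null lungs. Neither gene had overlapping genotypes, but they lay on opposite sides: *Axin1* was lower in every null lung (-0.13, 95% interval -0.32 to 0.06) and *Axin2* higher (0.08, 95% interval -0.10 to 0.26). Neither interval excluded 0. For both, the nearest WT and null lungs were almost level, null 1 with WT 3 in *Axin1* and with the same WT lung in *Axin2*.

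Nuclear effectors gave a value for 4 of 5 genes, of which 3 had lower means in the null lungs and 1 an equal mean, with a median of -0.05. With single lungs left out it ran from -0.09 without null 2 to -0.02 without null 3, and it was -0.008 with array weights and -0.0175 without both WT 1 and null 3, where 2 genes were lower and 2 higher. *Ctnnb1*, which encodes β-catenin, stood at 9.95, 9.82 and 9.82 in WT lungs and 9.82, 9.83 and 9.83 in null lungs. The null lungs matched WT 2 and WT 3, and the difference was -0.04 (95% interval -0.19 to 0.12). *Lef1*, a TCF/LEF factor that is itself a canonical target in many tissues, stood at 5.64, 5.74 and 5.77 in WT and at 5.48, 5.59 and 5.33 in null lungs. No null lung reached a WT lung. Its difference was -0.25 (SE 0.103, 95% interval -0.48 to -0.02, limma adjusted p = 0.89), at an unadjusted p under 0.05 in 13 of 19 settings. It was no longer so without WT 2, WT 3, null 1 or null 3, without both WT 1 and null 3, or with the replicate block.

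*Tcf7l2*, a TCF factor that activates targets when bound by β-catenin, stood at 7.27, 7.28 and 7.28 in WT lungs and 7.22, 7.37 and 7.04 in null lungs. The WT lungs were nearly alike and the null lungs lay on both sides of them, giving a difference of -0.07 (95% interval -0.28 to 0.15). *Tcf7l1*, which acts mostly as a repressor, differed by 0.00 (95% interval -0.18 to 0.18).

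The genotypes did not overlap for 8 of the 50 Wnt pathway genes, 7 with every null lung lower and 1, *Axin2*, with every null lung higher. Over all genes the background share was 10.2%, with 5.51% lower and 4.67% higher. With fewer lungs to separate, more genes had genotypes that did not overlap, over the whole array as well. The count was 9 (18%) without null 1, beside 17.4% of all genes, 16 (32%) without WT 1, beside 26.7%, and 13 (26%) without null 3, beside 24.6%. It was 11 (22%) without WT 2, WT 3 or null 2, beside 15.9%, 17.8% and 18.3%.

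**Figure D3:**
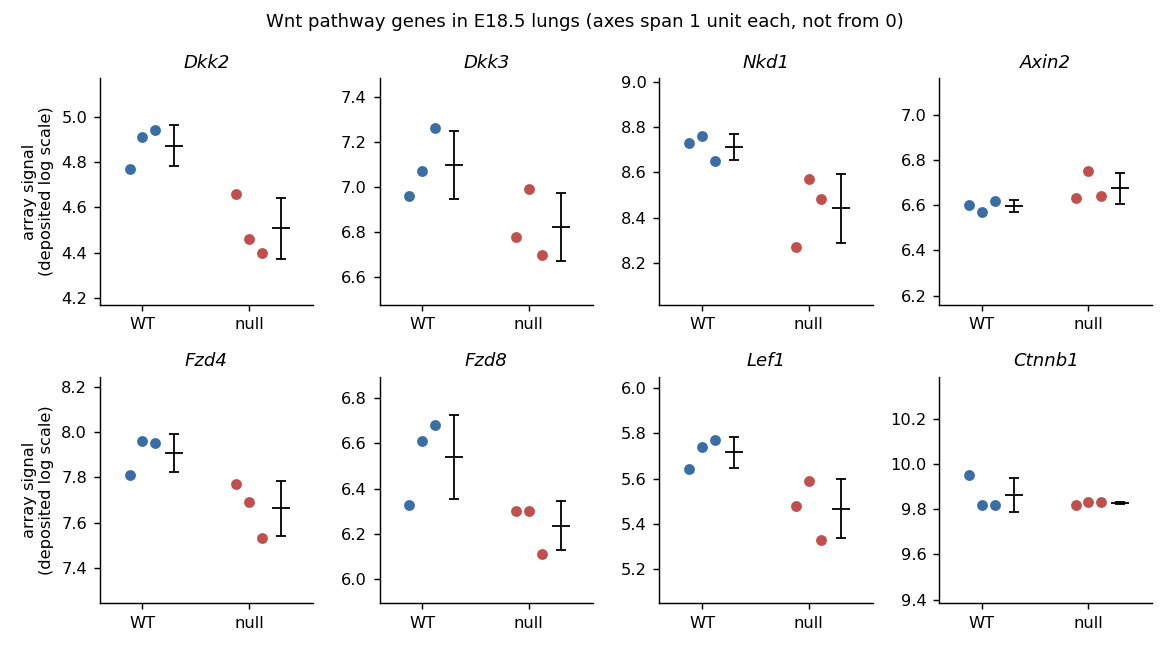
Array signal of 8 Wnt pathway genes in each of the 6 lungs (vertical axes, deposited log scale, each spanning 1 unit and not starting at 0), with 1 point per lung, WT in blue and *Tnrc6a* null in red, and the mean ± SD of each genotype beside its points. Null lungs lie below WT lungs for *Dkk2*, *Nkd1*, *Fzd4*, *Fzd8* and *Lef1* and just above them for *Axin2*, and the genotypes overlap for *Dkk3* and *Ctnnb1*.

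Averaged over the genes of a role, the genotypes overlapped for the ligands, receptors and inhibitors and met at a shared value of 0.02 (WT 2 and null 2) for the nuclear effectors. For the receptors, the mean deviation from each gene's mean over the 6 lungs was -0.10, 0.10 and 0.13 in WT 1, 2 and 3 and -0.05, 0.00 and -0.09 in null 1, 2 and 3. WT 1 was the lowest of the 6 lungs, while the other WT lungs were the highest. For the inhibitors the values were -0.02, 0.10 and 0.10 in WT lungs and -0.12, -0.01 and -0.04 in null lungs, with WT 1 between null 2 and null 3. Over the 50 genes, WT 1 at -0.07 stood with null 1 at -0.07, whereas WT 2 and WT 3 stood at 0.06 and 0.10.

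**Figure D4:**
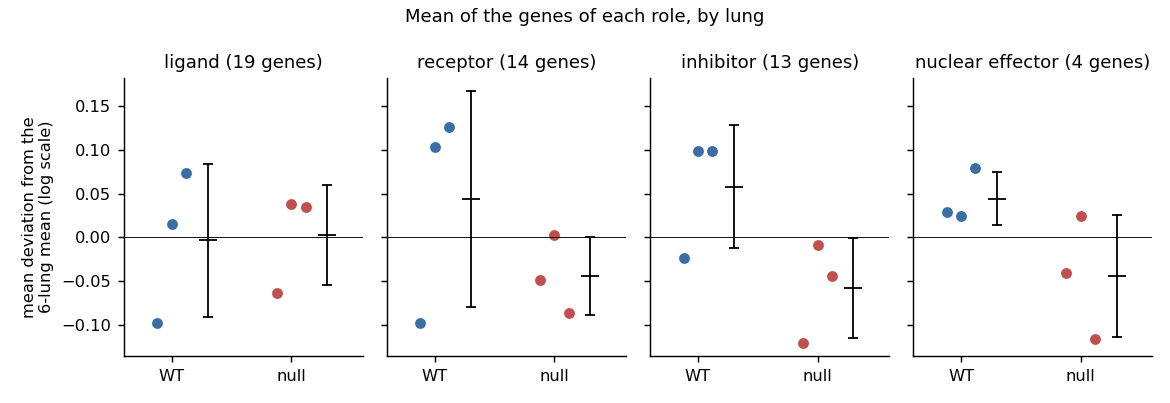
Mean deviation of the genes of each role from their own mean over the 6 lungs (deposited log scale), 1 point per lung, WT in blue and *Tnrc6a* null in red, with the mean ± SD of each genotype beside its points. WT 1, the leftmost WT point, is the lowest WT lung except for the nuclear effectors.

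In whole lung, fewer cells of a type and less RNA per cell cannot be told apart, and several cell type marker lists were lower in the null lungs alongside these genes. Endothelial markers had lower means for 9 of 10 genes, 4 of them at an unadjusted p under 0.05, and their mean level ran from 8.80 to 8.95 in WT and from 8.60 to 8.78 in null lungs. Mesenchymal markers were lower for 12 of 13 genes (8.32 to 8.37 against 8.17 to 8.24), 2 of them at an unadjusted p under 0.05, and *Lum* was dim. Alveolar type 1 markers were lower for 9 of 9 genes (9.33 to 9.45 against 9.09 to 9.29), 3 of them at an unadjusted p under 0.05. Airway markers were lower for 5 of 7 measured genes (6.90 to 6.94 against 6.74 to 6.82), 2 of them, *Rsph1* of the ciliary axoneme and *Cyp2f2* of club cells, at an unadjusted p under 0.05, and *Krt5* was dim. These 4 lists had ranges of mean level that did not overlap between genotypes. Over all genes, 5.42% were at an unadjusted p under 0.05 from limma. Most of these markers were bright: all 10 endothelial, all 9 alveolar type 1, 12 mesenchymal and 5 airway genes lay above the median signal. Above it 65.4% of all genes had a lower mean, and in the brightest bin 71.4%. Under the other scalings and without any 1 lung, at least 8 of 10 endothelial, 11 of 13 mesenchymal, 9 of 9 alveolar type 1 and 5 of 7 airway genes were lower.

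Lymphatic markers were lower for 6 of 6 genes with overlapping ranges (6.70 to 7.02 against 6.41 to 6.79), and general lung epithelial markers for 5 of 8 (8.39 to 8.42 against 8.29 to 8.44). Proliferation genes were higher for 12 of 12 measured genes, under the other scalings too, with overlapping ranges of 6.67 to 7.12 in WT and 6.80 to 7.28 in null lungs. Of the 12, 3 were at an unadjusted p under 0.05 from limma, beside 5.42% of all genes. T cell markers, considered because thymocytes use *Lef1*, were dim for 10 of 13 genes and ran from 3.75 to 3.90 in WT and 3.82 to 3.94 in null lungs. The remaining lists had overlapping ranges. Means were lower for 7 of 8 leukocyte, 6 of 7 cardiomyocyte, 5 of 8 mesothelial and 4 of 7 smooth muscle genes. They were lower for 4 of 8 alveolar type 2, 3 of 8 cartilage, 2 of 5 oesophageal and 1 of 3 measured erythroid genes. No marker was listed at 0. The part of these cell types in the values of the Wnt pathway genes was not tested.

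The other genes of the pathway, a list of 134 of which 132 had a value, gave 94 lower means, 37 higher and 1 equal, with a median of -0.06. None passed the adjusted test in limma, and 10 (7.58%, beside 5.42% of all genes) had an unadjusted p under 0.05. Of these, 8 (6.06%) were lower and 2 (1.52%) higher, beside 2.96% and 2.46% of all genes. Other secreted and receptor-level genes were evenly divided, with 13 of 28 lower, 14 higher and 1 equal, and a median of 0.005 that was -0.03 after median centring. In that group *Gpc4*, a glypican that binds Wnts at the cell surface, stood at 7.56, 7.68 and 7.64 in WT and at 7.40, 7.41 and 7.29 in null lungs, a difference of -0.26 (SE 0.0767). *Wnt9b*, a ligand best known from kidney development, lay the other way at 5.01, 5.03 and 5.26 in WT and 5.27, 5.42 and 5.56 in null lungs, a difference of 0.32 (SE 0.120). *Rspo4* differed by 0.24 with an interval that included 0.

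Cytoplasmic components had lower means for 22 of 26 genes, with a median of -0.07 (17 of 26 after cyclic loess). They included *Fbxw11*, a subunit of the ubiquitin ligase that recognises phosphorylated β-catenin (-0.17), *Csnk1e*, a casein kinase (-0.14), and *Apc* of the destruction complex (-0.15). Further nuclear components were lower for 17 of 20, with a median of -0.07 (14 of 20 after quantile normalization). There the Groucho-type corepressors *Tle3* and *Tle4* were at -0.19 and -0.15, and *Pygo2*, which helps β-catenin activate transcription, at -0.21. Of these 6 genes, *Fbxw11*, *Tle3* and *Pygo2* had an unadjusted p under 0.05. Most genes of both lists were bright. Above the median signal, 21 of 22 cytoplasmic and 17 of 20 nuclear genes had lower means, beside 65.4% of all genes there.

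The polarity and calcium branches had a value for 29 of 30 genes, the exception being *Rock2*, and 23 were lower, with a median of -0.09. Above the median signal 21 of 25 were lower, beside 65.4% of all genes there. *Camk2d*, a calcium-dependent kinase, stood at 6.84, 6.83 and 6.77 in WT and 6.60, 6.61 and 6.42 in null lungs (-0.27, SE 0.0859). *Celsr1*, a cadherin of planar cell polarity, stood at 7.29, 7.38 and 7.48 in WT and 7.16, 7.21 and 7.04 in null lungs (-0.25, SE 0.0858). The genotypes were separate for both genes, and for *Camk2b* at -0.27. In this list they did not overlap for 5 of 29 genes, beside 10.2% of all genes.

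Reported canonical targets other than those above had a value for 32 of 33 genes, all but *T*, with 21 lower, 11 higher and a median of -0.04. Above the median signal 17 of 22 were lower, beside 65.4% of all genes there. *Mmp14*, a membrane-bound matrix protease (-0.22), and *Sox4*, a transcription factor (-0.25), were lower at an unadjusted p under 0.05. *Mmp7*, a secreted matrix protease with a dim probe set, was higher (0.29). The adjusted p of every gene of these other lists with an unadjusted p under 0.05 was 0.89 in limma. Of the known targets among the 50 Wnt pathway genes, *Axin2* and *Notum* had higher means, *Lef1*, *Nkd1* and *Lgr5* lower ones, and *Dkk1* a mean whose sign turned with the scaling.

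TCF/LEF factors bind a core written CTTTGA, and the promoters of the Wnt pathway genes were read for it because *Lef1*, *Nkd1*, *Axin2* and *Dkk1* are known both as components and as targets. RefSeq windows on GRCm38.p6, from 250 bases before to 50 after a start, were at hand for 33 of the 51 genes, in 42 windows. The core was present on either strand in 5 of the 42 windows (11.9%), beside 16.0% of all 32851 promoter windows of that length. The longer form CTTTGAT, which contains the core, was in 2 of 42 (4.76%) beside 3.73% of all windows. The genes with the core were *Lef1*, *Wnt11*, *Wnt5b*, *Dkk1* and *Fzd1*. One of 4 windows of *Lef1*, the gene among them at an unadjusted p under 0.05, is printed whole (GRCm38.p6, chr3:131156044-131156343, plus strand), followed by the stretches around the core in *Wnt11* (chr7:98835045-98835084, plus strand), *Wnt5b* (chr6:119449435-119449474, minus strand) and *Dkk1* (chr19:30549591-30549630, minus strand). Capitals mark the core, which reads TCAAAG where it lies on the opposite strand.
Lef1: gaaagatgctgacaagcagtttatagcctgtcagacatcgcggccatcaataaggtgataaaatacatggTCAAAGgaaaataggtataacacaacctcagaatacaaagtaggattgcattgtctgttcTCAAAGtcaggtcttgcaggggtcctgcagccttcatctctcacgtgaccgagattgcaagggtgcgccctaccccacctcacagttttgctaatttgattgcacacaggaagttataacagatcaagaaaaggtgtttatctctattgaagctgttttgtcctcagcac
Wnt11: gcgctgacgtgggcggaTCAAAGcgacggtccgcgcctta
Wnt5b: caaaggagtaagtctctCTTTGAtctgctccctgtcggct
Dkk1: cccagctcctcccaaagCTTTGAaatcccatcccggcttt

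*Lef1* holds the core at positions -180 and -120 from the start in this window, and *Dkk1* at -174 and -117, of which the nearer is shown. *Wnt11* and *Wnt5b*, with the longer form, carry it at -50 and -71. The differences of these genes were -0.25 for *Lef1*, 0.01 for *Dkk1*, 0.10 for *Wnt11*, -0.04 for *Wnt5b* and -0.14 for *Fzd1*, on both sides of 0. A match to these letters is a description of the sequence and not a binding site.

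On the chromosome, 3 Wnt pathway genes, *Dkk3*, *Fzd4* and *Wnt11*, shared chromosome 7 with *Tnrc6a*. None of them lay within 10 Mb of it.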

How the data were processed

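Values of 3 WT and 3 *Tnrc6a* null lungs were used as the authors deposited them: 1 table of 35045 probe sets with log2 values per the labels, ranging from 0.29 to 12.49. The submitters' processing notes name MAS5, with no version or background setting given in the sources used here, so how dim signals were floored or scaled is not known. The labels say that each lung came from an individual embryo. Of the probe sets, 21789 carried 1 gene symbol and were used, 1621 carried several and 11635 none. The 19938 genes were tested with limma 3.58.1 (R 4.3.3), using lmFit followed by eBayes with its variance prior trended on mean signal,, with Benjamini-Hochberg adjustment over all of them, and no genes were filtered. Genotypes were compared as null minus WT. An exact permutation test of 3 against 3 lungs cannot go below p = 0.1 and was not used. Tables and figures were made with Python 3.11.15, pandas 2.3.3 and matplotlib 3.10.9, and the fit was tested on simulated data.

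The Wnt pathway genes, the other lists and the tests were chosen with earlier results of these data known. Named genes were *Tnrc6a*, a set of pathway components picked for their role, every Wnt pathway gene at an unadjusted p under 0.05 or without overlap, and up to 3 genes of smallest p in each other list. Alternatives were other scalings (quantile, median centring, cyclic loess), genes above the median signal, averaging a gene's probe sets, eBayes untrended or robust, array weights, a replicate block, the methods' t-test (unpaired, on the same array values, as the series' design text names it), each lung left out, and WT 1 with null 3 left out or as a block.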

Additional observations from a re-analysis of the deposited data

How the results depend on the processing

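No Wnt pathway gene passed an adjusted p of 0.05 under any alternative, the smallest adjusted p in limma being 0.0948 for *Fzd4*. Genes past that threshold over the whole array numbered 1 (*Tnrc6a*) as reported, 2 with array weights, 0 by the methods' t-test (*Tnrc6a* -1.93), 23 without both WT 1 and null 3, 56 with these lungs as a block, and 0 to 1 with each lung left out (*Tnrc6a* -1.96 without WT 3, where none passed). Wnt pathway genes at an unadjusted p under 0.05 numbered 6 as reported (5.42% of all genes), 11 without both WT 1 and null 3 (14.5% of all genes) and 1 to 9 with each lung left out (3.08% to 8.68%). Those without overlap numbered 8 as reported (10.2%), 24 or 48% without both lungs (43.6%) and 9 to 16 with each left out (15.9% to 26.7%). The median of the inhibitors was -0.185 without both lungs and -0.15 to -0.037 with each left out.

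With the replicate number as a block, 2 Wnt pathway genes (*Dkk2* and *Nkd1*) had an unadjusted p under 0.05, a share of 4% beside 4.12% of all genes. The numbers share no stated litter or batch, and deviations of same-numbered lungs correlated at -0.30, 0.36 and -0.16, so the main fit did not pair them. These correlations cannot tell whether lungs shared litters in another order. Null 3 correlated best with WT 1 (0.54), not with its own number.

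Signs turned for genes with differences near 0. *Wnt2* was 0.0022 and *Wnt5a* 0.0011 after quantile normalization, and 0.0036 and 0.0099 after cyclic loess. *Dkk1* was -0.037 after quantile normalization, -0.0267 after median centring, -0.0277 after cyclic loess, -0.073 with array weights and -0.105 without both lungs. *Fzd2* was -0.017 after median centring, -0.052 with array weights and -0.095 without both lungs. *Lrp6* was -0.013 after median centring. Without both lungs *Notum* was -0.035, *Ctnnb1* 0.005 and *Tcf7l2* 0.015. With each lung left out, the differences ran from -0.142 to 0.038 for *Wnt2*, -0.092 to 0.068 for *Wnt5a*, -0.083 to 0.042 for *Wnt7b*, -0.057 to 0.073 for *Fzd2*, -0.0033 to 0.042 for *Lrp6*, -0.19 to 0.025 for *Lgr5*, -0.055 to 0.09 for *Dkk1*, -0.222 to 0.088 for *Wif1*, -0.018 to 0.157 for *Notum*, -0.058 to 0.0067 for *Ctnnb1* and -0.147 to 0.018 for *Tcf7l2*. The cause of these shifts was not tested. For the named genes, which include *Tnrc6a* and genes of the other lists, 694 values under an alternative kept their direction and side of the adjusted threshold. Another 32 turned sign. As reported, only *Tnrc6a* was past that threshold, so keeping the same side says little about the other genes. The 2 values no longer past it were those of *Tnrc6a*, by the methods' t-test and without WT 3. *Dkk2*, *Nkd1*, *Fzd4*, *Fzd8*, *Dkk3* and *Lef1* were lower in the null lungs in every setting in which they were tested. These genes had been picked by their unadjusted p in the same values, and several settings reuse the same difference. Where the genotypes did not overlap, leaving out a lung could not turn the sign. Their constant sign is therefore no independent support.

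Lower means among the 50 Wnt pathway genes numbered 35 (70%) as reported and after quantile normalization, 41 (82%) after median centring and 33 (66%) after cyclic loess, beside 49.8%, 56.8%, 60.1% and 54.3% of all genes in that order. Among all genes at an unadjusted p under 0.05, the share lower in the null lungs was 54.7% as reported, 77.2% after median centring and 37.6% without the trend. Probe sets near the dim limit of 4.37 give differences that are hard to read. Of the 50 genes, 4 lie below it, and *Lgr4*, *Rspo3*, *Rspo2*, *Wnt6* and *Dkk2* are among those not far above it.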
